A study of Mus musculus with 27 samples.

Results

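The amino acid and monocarboxylate transporters of the colonic epithelium were followed over a dose series of TCDD. The set comprised the protein-coding genes of the solute carrier families Slc1, Slc3, Slc6, Slc7, Slc15, Slc16, Slc36, Slc38 and Slc43, together with Slc5a8. Of 81 gene symbols in these families, 60 had at least 10 counts in at least 3 of the 27 mice and were kept as members, out of 46078 genes counted. The Slc7 family gave 12 members, Slc16 gave 11, Slc6 gave 10, Slc38 gave 8, Slc1 gave 6, Slc15 gave 4, Slc36 and Slc43 gave 3 each, Slc3 gave 2 and Slc5 gave 1. Just inside the limit was Slc36a2, which reached 10 counts in 3 mice, and just outside were Slc6a11 and Slc6a5, which reached it in 2 mice each, and Slc38a5, which reached it in 1. Among the 21 symbols that were left out, 3 (Slc36a3, Slc6a16 and Slc7a12) had no count in any mouse.

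RNA was sequenced from colonic epithelium scraped from male mice of the C57BL/6 strain, which carried no transgene or engineered allele according to the labels. From 28 days of age the mice received 7 gavages, 1 every 4 days, of sesame oil alone (vehicle, 3 mice) or of TCDD in sesame oil. TCDD was given at 1 of 8 doses (3 mice at each), namely 0.01, 0.03 and 0.1 μg/kg, 0.3, 1 and 3 μg/kg, and 10 and 30 μg/kg. Tissue was collected on day 28 of the study, at 56 days of age. TCDD is a persistent dioxin that binds the aryl hydrocarbon receptor (AhR), a transcription factor. Each mouse is a separate animal with its own number, and values are given here by that number.

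Epithelial cells take up amino acids across the brush border by sodium- or proton-coupled carriers, exchange them for one another, and release them to the blood side through exchangers and facilitated carriers. Several light chains of the Slc7 family reach the membrane only when paired with a heavy chain of the Slc3 family. In the colon, butyrate made by bacteria is a main fuel, and it enters and leaves cells through monocarboxylate carriers, which also move lactate and pyruvate.

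Gene counts ranged from 9305441 to 14371035 per mouse, with a median of 11651026. Levels are given as CPM, gene counts scaled to a common library size, after TMM scaling, and between genes only per kilobase of exon. The summed CPM of 5 AhR target genes was 74.7 to 88.2 in the vehicle-treated mice and 2540 to 3040 at 30 μg/kg, in the direction of the labels. The colonocyte markers were present in all mice (summed CPM of 8 genes 7570 to 8040 with vehicle, 7310 to 8460 at 30 μg/kg). Summed markers of stroma and muscle (8 genes, all detected) were 95.5 to 130 CPM with vehicle and 351, 129 and 681 CPM in mice 65, 66 and 67 at 30 μg/kg. Tuft cell markers (5 genes) were 60.1 to 71.3 CPM with vehicle and 15.3 to 26.7 CPM at 30 μg/kg, stem and proliferation markers (6 genes) 348 to 401 and 210 to 230 CPM, and endothelial markers (4 genes) 21.9 to 29.4 and 27.7 to 54.9 CPM. Mouse 66 stood apart in small intestine markers (7 genes), at 249 CPM against 47.4 to 123 CPM in the other mice. The index barcodes were used in 2 sets. The first set held 16 mice, those of the 5 lowest groups and mouse 41 (1 μg/kg), and the second set the other 11, so that index set and dose cannot be told apart in a comparison of the higher doses with vehicle. Clock genes moved with dose in the same way, since a score of 9 clock genes minus 5 others averaged -2.61 with vehicle and 1.97 at 30 μg/kg, with the largest step between neighbouring doses from 0.3 to 1 μg/kg.

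The regions around the transcription start are shown for 4 members on which the results turn, namely Slc6a14 and Slc5a8, the most abundant members called lower at 30 μg/kg, and Slc6a19 and Slc1a4, carriers of neutral amino acids called higher. Each sequence runs 5′ to 3′ on the strand of the gene, from 250 bases before the RefSeq start to 50 bases after it (GRCm38.p6). They lie at chrX:21714650-21714949 (Slc6a14, plus strand), chr10:88885742-88886041 (Slc5a8, plus strand), chr13:73692587-73692886 (Slc6a19, minus strand) and chr11:20332664-20332963 (Slc1a4, minus strand). Capitals mark matches to a searched motif, on either strand.
Slc6a14: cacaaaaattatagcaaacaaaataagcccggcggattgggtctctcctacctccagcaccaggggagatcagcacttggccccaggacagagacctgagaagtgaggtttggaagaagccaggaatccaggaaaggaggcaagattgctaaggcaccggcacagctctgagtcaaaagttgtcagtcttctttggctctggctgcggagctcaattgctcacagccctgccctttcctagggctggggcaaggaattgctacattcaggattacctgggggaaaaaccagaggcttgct
Slc5a8: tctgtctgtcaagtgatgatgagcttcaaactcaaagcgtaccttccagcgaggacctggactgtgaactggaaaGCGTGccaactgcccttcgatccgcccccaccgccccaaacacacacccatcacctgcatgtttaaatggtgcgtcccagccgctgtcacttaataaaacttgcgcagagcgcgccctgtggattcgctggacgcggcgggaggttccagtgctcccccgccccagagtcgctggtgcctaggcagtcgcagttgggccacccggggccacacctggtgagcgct
Slc6a19: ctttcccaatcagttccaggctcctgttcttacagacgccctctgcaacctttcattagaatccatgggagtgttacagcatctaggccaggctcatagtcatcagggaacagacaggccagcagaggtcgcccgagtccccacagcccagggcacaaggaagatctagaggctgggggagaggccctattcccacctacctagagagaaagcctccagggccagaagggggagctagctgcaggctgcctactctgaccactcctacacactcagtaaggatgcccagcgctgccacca
Slc1a4: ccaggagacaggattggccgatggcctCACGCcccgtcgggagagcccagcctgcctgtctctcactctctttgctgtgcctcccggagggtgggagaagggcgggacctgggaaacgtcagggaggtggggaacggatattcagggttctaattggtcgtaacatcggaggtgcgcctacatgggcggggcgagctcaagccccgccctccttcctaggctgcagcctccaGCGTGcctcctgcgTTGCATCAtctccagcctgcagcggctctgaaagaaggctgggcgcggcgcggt

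The motifs searched were the dioxin response element core GCGTG, the antioxidant response element core TGACNNNGC, the amino acid response element cores TTGCATCA and TGATGNAA, and the E-box CACGTG. The promoter table held 42 of the 60 members. GCGTG was present for 21 of these 42 members and for 35.2% of all 27025 genes in the table, and for 5 of the 10 members called at 30 μg/kg that had a promoter. Among the 4 sequences shown, Slc5a8 held 1 copy and Slc1a4 held 2, while Slc6a14 and Slc6a19 held none of the motifs in this window. Slc1a4, a gene of the amino acid response, also held TTGCATCA, which reads as a match to TGATGNAA on the other strand and was found for 3 of 42 members and for 1.03% of all genes. TGATGNAA was found for 3 members (4.51% of all genes), TGACNNNGC for 8 (14%) and CACGTG for 7 (8.09%). These are matches of letters and not measured sites.

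The most abundant member per kilobase was Slc6a14, a broad carrier of neutral and cationic amino acids, with 181 ± 37.6 CPM per kb (SD over 27 mice). It was followed by Slc16a1, the main carrier of butyrate and lactate of colonocytes, with 76.2 ± 11.2 CPM per kb, by the creatine carrier Slc6a8 with 67.9 ± 16.3, and by the sodium-coupled monocarboxylate carrier Slc5a8 with 59 ± 14.8 CPM per kb. The taurine carrier Slc6a6 had 44.9 ± 8.83 and the glutamine exchanger Slc1a5 36.1 ± 3.42 CPM per kb. Slc6a14 exceeded Slc16a1 in 26 of 27 mice, whereas over all mice Slc1a5 exceeded Slc16a5, next in order with 34.8 ± 9.03 CPM per kb, in 17 mice and Slc16a5 exceeded Slc3a1 (34.1 ± 13.1) in 16. This order holds for the mean over all doses and changed with dose. With vehicle, Slc5a8 (74.7 ± 22 CPM per kb, SD, n = 3), Slc16a1 (73.4 ± 10.3) and Slc6a8 (70.5 ± 23.8) followed Slc6a14 within one another's spread, and Slc1a5 (34.3 ± 1.78) lay above Slc3a1 (25.5 ± 2.35) and Slc16a5 (25.2 ± 0.351) in all 3 mice. At 30 μg/kg Slc5a8 had 34.6 ± 12.7 CPM per kb and came after Slc6a6 (60 ± 15.7), Slc3a1 (57.2 ± 12.2), Slc16a5 (42.8 ± 1.07) and Slc1a5 (42.3 ± 5.36), with Slc3a1 above Slc16a5 and Slc1a5 in all 3 mice. Slc38a2, a sodium-coupled carrier of small neutral amino acids, had 27.8 ± 2.35 CPM per kb. The di- and tripeptide carrier Slc15a1 had 21 ± 13.1, Slc38a10 had 18.2 ± 1.05 and the serine and alanine exchanger Slc1a4 had 17.6 ± 3.99 CPM per kb. Slc15a1 exceeded Slc38a10 in 13 of 27 mice. At the other end of the order, Slc6a17 had 0.0742 ± 0.0549 CPM per kb.

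**Figure D1:**
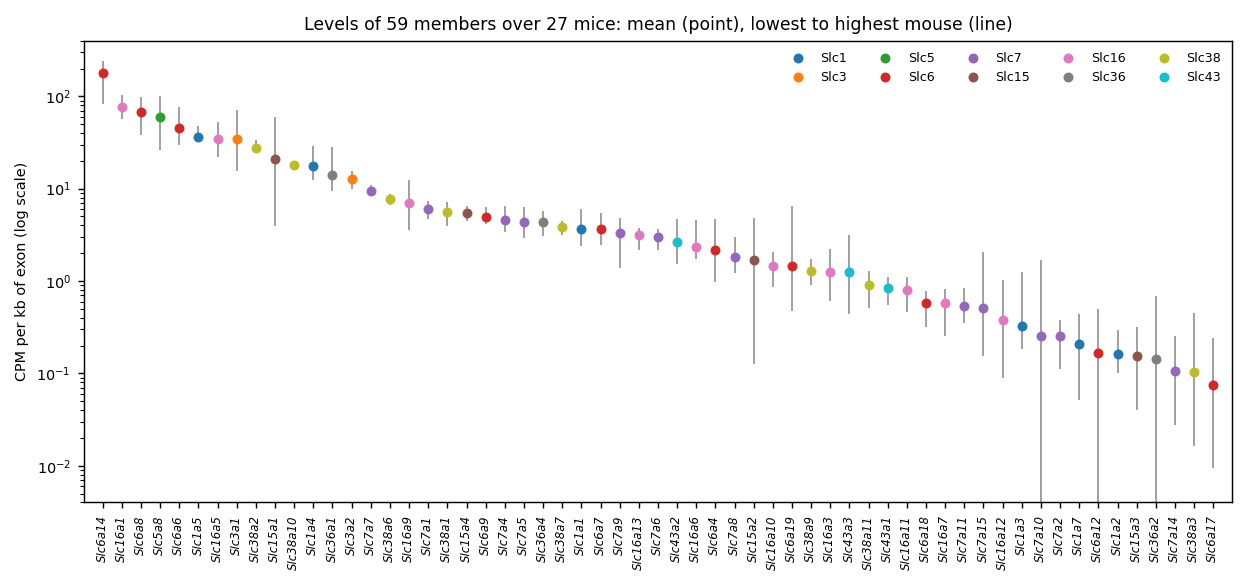
Levels of 59 of the 60 members in CPM per kilobase of exon on a log scale, ordered by their mean over 27 mice; points are means coloured by family and lines run from the lowest to the highest mouse. Slc6a14 (181 CPM per kb) is at the top and Slc6a17 (0.0742 CPM per kb) at the bottom; lines that reach the lower edge hold a mouse with no count.

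The summed level of all members ran from 3495 to 3829 CPM as group means, with 3754 ± 237 with vehicle and 3725 ± 292 at 30 μg/kg (SD, n = 3). By family, the Slc1 sum was 235 to 252 CPM with vehicle and 281 to 350 CPM at 30 μg/kg, and the Slc3 sum was 92.7 to 106 and 160 to 212 CPM, without overlap. The Slc16 sum (463 to 536 and 575 to 681 CPM) and the Slc43 sum (25.4 to 34.7 and 42.4 to 62.4 CPM) were also higher at 30 μg/kg without overlap, and Slc5a8, the 1 member of its family, was lower (318 to 532 and 139 to 262 CPM). The sums of the other 5 families overlapped between the groups. The Slc38 sum was 579 to 593 CPM with vehicle and 534 to 594 CPM at 30 μg/kg. Of all single genes tested, 29.7% had all mice at 30 μg/kg outside the vehicle range. The sums can follow few members. Means with vehicle and at 30 μg/kg were 93.1 and 158 CPM for Slc16a5 and 325 and 380 CPM for Slc16a1. They were 57.8 and 130 CPM for Slc3a1 and 20.7 and 38.8 CPM for Slc43a2.

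Single members rose and fell at the top dose within this sum. Of the 60 members, 59 passed edgeR's filter on low counts, and Slc36a2 did not. A member was called at a Benjamini-Hochberg adjusted p under 0.05 over 16496 genes and a fold change of at least 1.5 in edgeR's quasi-likelihood test. All doses were compared with the same 3 vehicle-treated mice. No member was called at any of the 4 doses up to 0.3 μg/kg, where the share of all genes called was 0% at each dose, and 4, 2, 6 and 5 members had an unadjusted p under 0.05 (1047, 766, 1051 and 856 of all genes). DESeq2 and limma voom called none there either. At 1 μg/kg 1 member was called (0.200% of all genes), and 1 was called at 3 μg/kg (0.697%). At 10 μg/kg 2 members were called (1.78%), and 13 were called at 30 μg/kg (6.16%). Of those 13 members, 9 were higher (2.95% of all genes) and 4 lower (3.21%). Log2 fold changes at 30 μg/kg had a median of 0.17 over the 59 members and -0.002 over all genes tested. All mice at 30 μg/kg lay outside the vehicle range for 23 of the 59 members, 16 above and 7 below, compared with 29.7% of all genes. With a term for the index set, 5 members were called at 30 μg/kg (Slc6a14, Slc6a17, Slc6a19, Slc7a14 and Slc6a4), when 4.43% of all genes were, and with the clock score as a covariate 1 (Slc6a14), when 2.56% of all genes were. Only the group at 1 μg/kg held both index sets, so the index set term in this fit rests on mouse 41 against mice 43 and 44. Index set and clock score follow dose, and their part in the other calls was not tested.

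**Figure D2:**
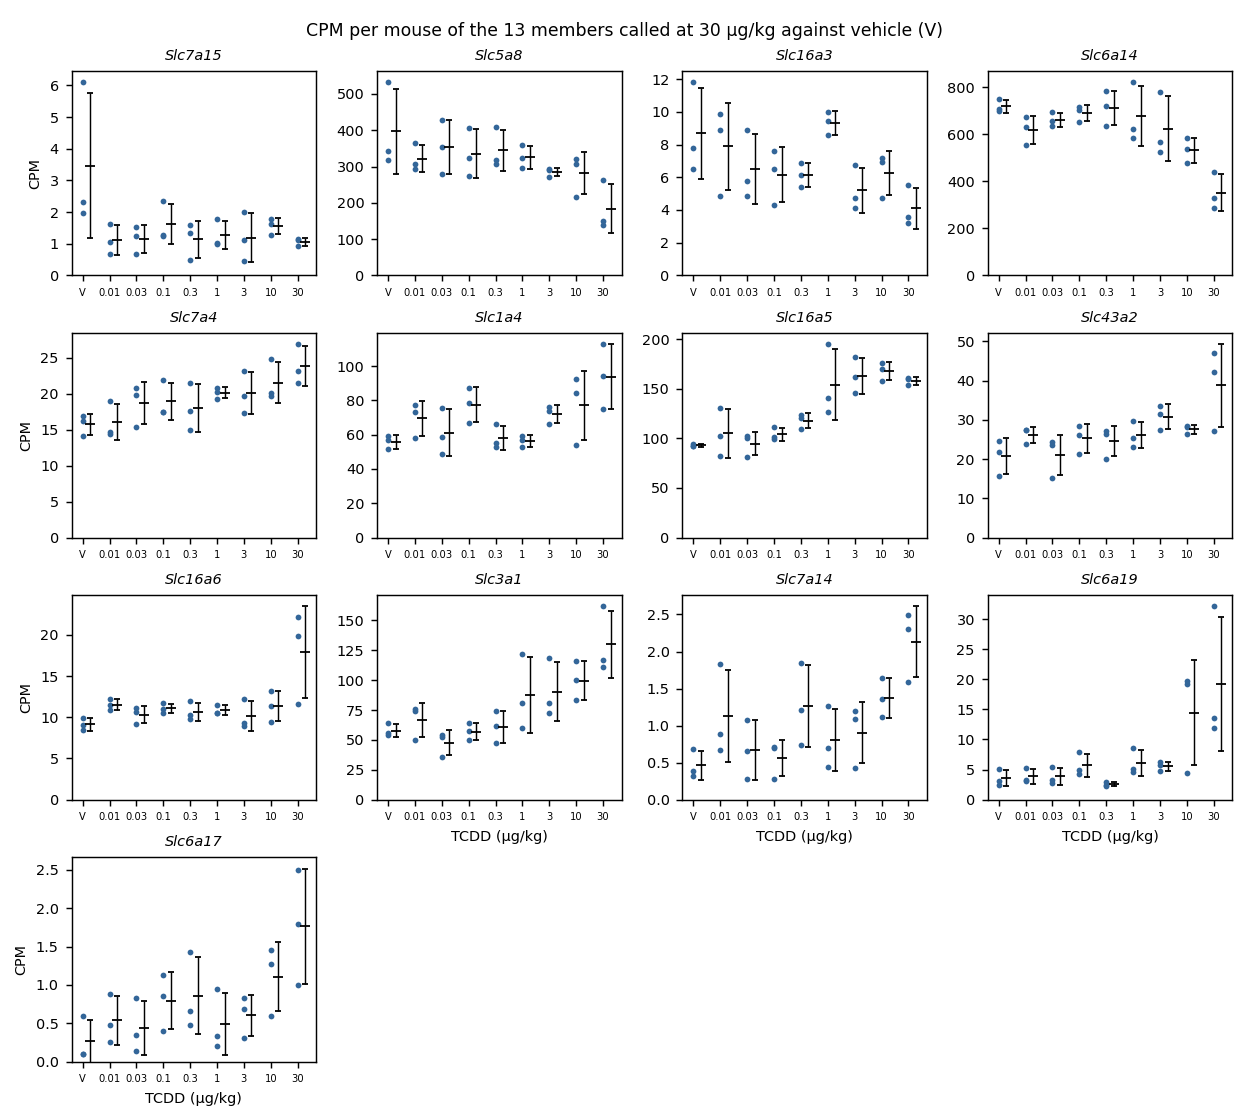
CPM of the 13 members called at 30 μg/kg, 1 point per mouse, by TCDD dose in μg/kg (V, vehicle); bars give the mean ± SD of 3 mice. Slc6a14 falls to 286 to 440 CPM at 30 μg/kg, Slc16a5 lies between 127 and 195 CPM from 1 μg/kg upward, and the high value of Slc7a15 with vehicle is that of mouse 2.

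**Figure D3:**
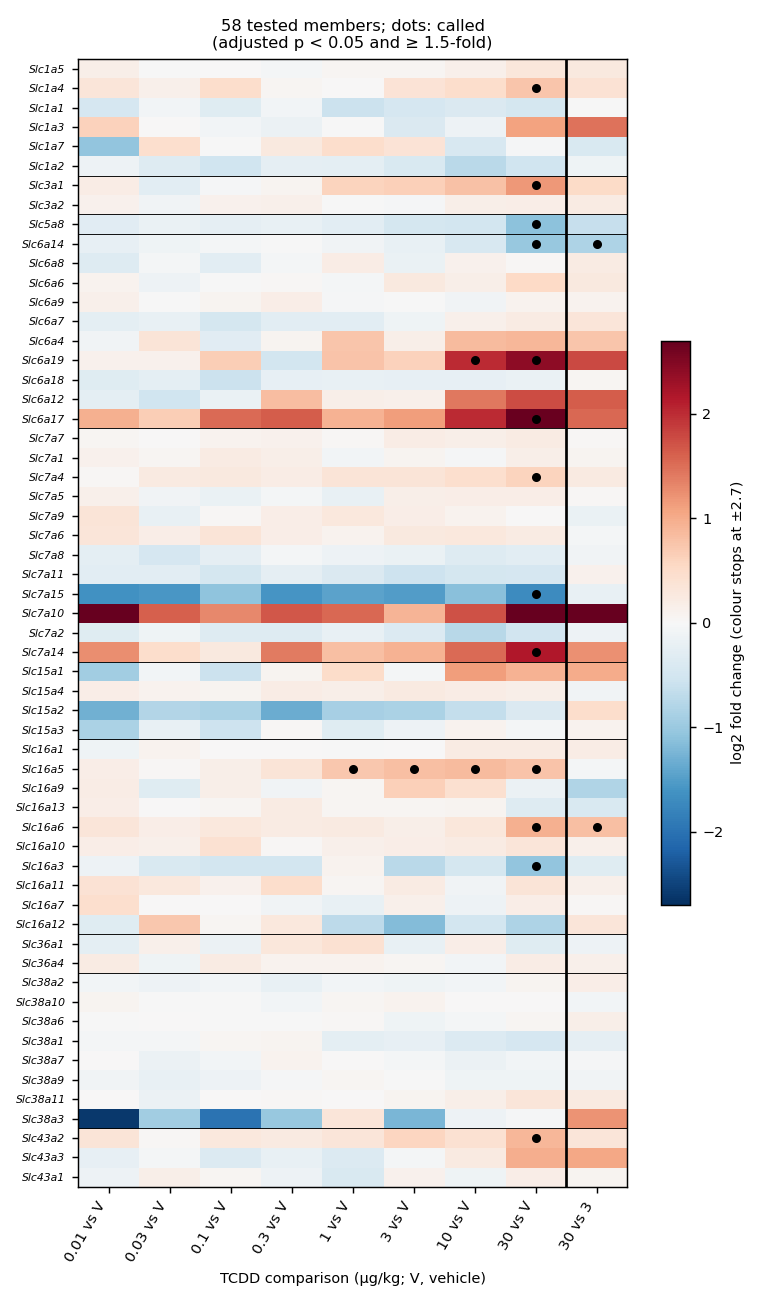
Log2 fold changes of 58 of the 59 tested members (rows, by family and then by level) at each dose against vehicle and, right of the line, at 30 against 3 μg/kg; dots mark called members. The dots number 1, 1, 2 and 13 at 1, 3, 10 and 30 μg/kg and 2 in the column of 30 against 3 μg/kg.

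Among the apical carriers of neutral amino acids, the most abundant member fell and a sparse one rose. Slc6a14 had 699, 708 and 751 CPM in the vehicle-treated mice 2, 3 and 4, and 440, 331 and 286 CPM in mice 65, 66 and 67 at 30 μg/kg. The groups were widely separated, and no mouse at another dose was below 476 CPM. Its log2 fold change was -1.03 ± 0.15 (SE, adjusted p = 0.000142, edgeR). At 10 μg/kg its 3 mice had 537, 582 and 476 CPM, below the range with vehicle, and Slc6a14 was not called there.

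Slc6a19, the main carrier of neutral amino acids in the brush border of the small intestine, had 2.46, 3.16 and 5.10 CPM with vehicle, 19.2, 4.37 and 19.7 CPM at 10 μg/kg and 11.9, 32.1 and 13.6 CPM at 30 μg/kg. The 30 μg/kg mice lay above all vehicle-treated mice, and mouse 58 at 10 μg/kg did not. The log2 fold change was 2.42 ± 0.46 at 30 μg/kg (adjusted p = 0.00172) and 2.01 ± 0.46 at 10 μg/kg (adjusted p = 0.0166), the latter lost when any of 4 of the 6 mice compared was left out. Mouse 66, with the highest Slc6a19, was the mouse with the high small intestine markers. Without it Slc6a19 at 30 μg/kg had a log2 fold change of 1.83 (adjusted p = 0.016). Slc6a19 overlaps the antisense gene Slc6a19os. The use of strand in counting is not given, so reads where they overlap may be mixed or set aside as ambiguous.

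In a list of 9 partner and neighbouring transport genes, 3 of 8 tested were called higher at 30 μg/kg (2.95% of all genes) and none lower (3.21%), with a median log2 fold change of 0.74. Among them, the proline carrier Slc6a20a had 3.25 to 4.11 CPM with vehicle and 6.72 to 8.78 CPM at 30 μg/kg (log2 fold change 1.09 ± 0.28, adjusted p = 0.0139). Slc5a12, a low-affinity monocarboxylate carrier, was called but had at most 0.197 CPM with vehicle and 0.288 to 3.60 CPM at 30 μg/kg, and no fold is given for it. Basigin (Bsg), the chaperone of the Slc16 carriers, had a log2 fold change of 0.02 ± 0.10 (adjusted p = 0.929).

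Peptidases of the brush border and cytosol, which supply amino acids to these carriers, were called higher for 4 of 15 tested (2.95% of all genes) and lower for none, with a median log2 fold change of 0.33. Aminopeptidase N (Anpep) had 8.12, 12.0 and 25.3 CPM with vehicle, lowest to highest, and 35.3, 41.9 and 82.7 CPM at 30 μg/kg (1.81 ± 0.57, adjusted p = 0.0427). Aminopeptidase A (Enpep) had 8.76 to 18.3 and 31.1 to 37.7 CPM (1.32 ± 0.41, adjusted p = 0.0369). The cytosolic dipeptidase Cndp2 had 48.9 to 57.9 and 83.7 to 105 CPM (0.84 ± 0.14, adjusted p = 0.000565), and Xpnpep2 5.31 to 9.91 and 12.2 to 18.9 CPM (0.94 ± 0.24, adjusted p = 0.016). None of these 4 overlapped between the groups. Small intestine markers were called higher for 3 of 7 genes (Lct, Rbp2 and Alpi), against 2.95% of all genes. Of the other 4, Apoa4 was at 1.98 ± 0.80, Sis at 0.08 ± 0.56, Defa24 at -0.37 ± 0.96 and Fabp6 at -0.61 ± 0.60 (adjusted p = 0.109, 0.951, 0.849 and 0.549). The list had summed CPM of 64.5 to 84.2 with vehicle and of 82.7, 249 and 96.7 in mice 65, 66 and 67. Their part in the changes of Slc6a19, Slc3a1 and the peptidases was not tested.

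Of the heavy chains, the one that pairs with the cystine and cationic amino acid light chain Slc7a9 rose. Slc3a1 had 55.8, 63.9 and 53.8 CPM with vehicle and 117, 162 and 111 CPM at 30 μg/kg, without overlap. Its log2 fold change was 1.17 ± 0.24 (adjusted p = 0.00322), and its mice had 99.8, 116 and 83.2 CPM at 10 μg/kg. Slc7a9 itself was at 3.74, 11.4 and 9.42 CPM with vehicle and 5.90, 11.6 and 7.07 CPM at 30 μg/kg (0.002 ± 0.35, adjusted p = 0.998). The heavy chain Slc3a2, shared by the other light chains, had 46.6, 41.8 and 38.9 CPM with vehicle and 45.2, 50.3 and 48.8 CPM at 30 μg/kg (0.18 ± 0.13, adjusted p = 0.395). Reads of Slc3a1 and of Prepl, which lies opposite to it, may be mixed or set aside as ambiguous where the genes overlap.

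Of the 8 light chains among the members, 1 was called at 30 μg/kg (6.16% of all genes), namely Slc7a15, given with the low members. Log2 fold changes were 0.18 ± 0.20 for the large neutral amino acid exchanger Slc7a5, 0.22 ± 0.09 for Slc7a7, which releases cationic amino acids on the blood side, -0.28 ± 0.22 for Slc7a8 and -0.45 ± 0.26 for the cystine and glutamate exchanger Slc7a11 (adjusted p = 0.615, 0.124, 0.447 and 0.271, edgeR). For Slc7a6, another exchanger of cationic and neutral amino acids, it was 0.21 ± 0.17 (adjusted p = 0.458). Slc7a11 supplies cysteine for glutathione, and among 7 glutathione genes 1 was called higher (2.95% of all genes) and 1 lower (3.21%). These were Cbs (0.59 ± 0.16, adjusted p = 0.0178) and Gpx2 (-0.79 ± 0.20, adjusted p = 0.0129).

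The facilitated carrier Slc43a2, which lets branched-chain and aromatic amino acids out on the blood side, had 15.6, 21.8 and 24.6 CPM with vehicle and 27, 47.2 and 42.2 CPM at 30 μg/kg. The groups did not overlap, with mouse 65 only slightly above the vehicle range. The log2 fold change was 0.90 ± 0.19 (adjusted p = 0.00483). For Slc43a1, a carrier of the same substrates, it was 0.19 ± 0.21 (adjusted p = 0.612).

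The exchanger Slc1a4 had 51.5, 59.2 and 56.7 CPM with vehicle and 75.1, 94.1 and 113 CPM at 30 μg/kg, a log2 fold change of 0.75 ± 0.18 (adjusted p = 0.00903). Without mouse 67, which had the highest Slc1a4 and the highest stroma markers, it was 0.60 (adjusted p = 0.0551). The call was also lost with a stroma score (the mean log2 CPM of the stroma markers) as covariate, a setting added once the values were known (0.62, adjusted p = 0.0548), as were those of Slc16a3, Slc7a4 and Slc7a15 (adjusted p = 0.0715, 0.0834 and 0.0979). Its relative Slc1a5 had 139, 139 and 152 CPM with vehicle and 170, 158 and 201 CPM at 30 μg/kg. Slc1a5 passed the adjusted p (0.019) but not the fold, with 0.30 ± 0.08. Of 22 tested genes of the amino acid response driven by the transcription factor ATF4, 1 was called higher (2.95% of all genes), the serine synthesis gene Psat1 (0.69 ± 0.22, adjusted p = 0.0467), and none lower, with a median of 0.16. Of 21 genes of amino acid sensing by mTORC1, 1 was called, and it was lower (3.21% of all genes), the leucine sensor family gene Sesn3 (-0.76 ± 0.13, adjusted p = 0.000693). The mitochondrial glutamate carrier Slc25a22 was called higher, with 26.4 to 29.3 CPM with vehicle and 37.7 to 66.4 CPM at 30 μg/kg (0.78 ± 0.18, adjusted p = 0.00907), as the only 1 of 16 mitochondrial and vesicular carriers (2.95% of all genes).

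The monocarboxylate carriers differed among themselves. Slc16a1 had 377, 309 and 290 CPM with vehicle and 356, 450 and 334 CPM at 30 μg/kg, and the groups overlapped (log2 fold change 0.23 ± 0.16, adjusted p = 0.397). Slc5a8, which takes up butyrate with sodium at the luminal membrane, had 532, 318 and 344 CPM with vehicle and 262, 139 and 151 CPM at 30 μg/kg. All 30 μg/kg mice were below all vehicle-treated mice, and the log2 fold change was -1.11 ± 0.22 (adjusted p = 0.0028). Vehicle-treated mouse 2 was the highest of all 27 mice, and without it the log2 fold change was -0.84 (adjusted p = 0.0332). At 10 μg/kg the mice had 322, 216 and 308 CPM.

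Slc16a3, the carrier of lactate out of glycolytic cells, had 11.8, 7.80 and 6.48 CPM with vehicle and 5.54, 3.60 and 3.19 CPM at 30 μg/kg, a log2 fold change of -1.07 ± 0.30 (adjusted p = 0.023). The call rested on mouse 2, without which it was -0.78 (adjusted p = 0.154), and was also lost without mouse 66 (-0.98, adjusted p = 0.0841) or mouse 67 (-0.92, adjusted p = 0.102). Of 19 tested genes of butyrate and lactate use, 1 was called, and it was lower (3.21% of all genes). This was Ffar2, a receptor of short-chain fatty acids, with 22.0 to 27.3 CPM with vehicle and 11.9 to 13.9 CPM at 30 μg/kg (-0.96 ± 0.18, adjusted p = 0.00201).

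Slc16a5, a member of the monocarboxylate carrier family whose natural substrates are poorly known, was the member called at the lowest dose. It had 92.7, 92.0 and 94.5 CPM with vehicle, 81.8 to 131 CPM at 0.01 μg/kg and 81.5 to 102 CPM at 0.03 μg/kg. All mice at 0.1 μg/kg (99.1 to 111 CPM) and 0.3 μg/kg (109 to 124 CPM) were above the vehicle range, and Slc16a5 was not called there. It had 141, 127 and 195 CPM in mice 41, 43 and 44 at 1 μg/kg, and 162, 145 and 182 CPM at 3 μg/kg. It had 170, 176 and 158 CPM at 10 μg/kg, then 160, 161 and 154 CPM at the top dose. Every mouse from 0.1 μg/kg on was thus above the vehicle range, with group means of 104 and 118 CPM at 0.1 and 0.3 μg/kg and of 154, 163, 168 and 158 CPM at 1, 3, 10 and 30 μg/kg. None of the higher doses was tested against 1 μg/kg alone. Log2 fold changes were 0.73 ± 0.14 (adjusted p = 0.0228), 0.81 ± 0.14 (0.00395), 0.85 ± 0.14 (0.00152) and 0.77 ± 0.14 (0.00133) at these doses. The call at 1 μg/kg was kept only when mouse 43 was the mouse left out, and those at 3, 10 and 30 μg/kg were kept whichever mouse was left out. The clock score averaged -2.61 with vehicle and -2.08, -0.80 and 1.54 at the doses 0.1, 0.3 and 1 μg/kg, in this order. Mouse 14 at 0.01 μg/kg, the only mouse of the 5 lowest groups with a clock score above 0 (1.455), had 131 CPM of Slc16a5, more than the other 14 mice of these groups. With the clock score as a covariate its log2 fold change fell to 0.19 at 30 μg/kg (adjusted p = 0.695). Mouse 41, which shares the index set of the vehicle-treated mice, had 141 CPM.

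Slc16a6, a carrier linked to ketone body export and taurine transport, had 9.05, 8.43 and 9.91 CPM with vehicle and 11.6, 22.2 and 19.9 CPM at 30 μg/kg (0.96 ± 0.18, adjusted p = 0.0014). Mice 66 and 67 were above every other mouse, while mouse 65 was within the range of 8.92 to 13.2 CPM seen at 3 and 10 μg/kg. Amz2 and Arsg lie opposite to Slc16a6 and an antisense gene, Gm11695, opposite to Slc16a5, so that reads of these pairs may be mixed or set aside. The same holds for Slc7a4, opposite to P2rx6, and for Slc7a14, opposite to the antisense gene Gm15496.

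The taurine carrier Slc6a6 had 305, 381 and 370 CPM with vehicle and 398, 655 and 468 CPM at 30 μg/kg, and passed the adjusted p (0.0383) but not the fold, with a log2 fold change of 0.53 ± 0.16. The creatine carrier Slc6a8 had 510, 312 and 280 CPM with vehicle and 398, 441 and 295 CPM at 30 μg/kg (0.04 ± 0.27, adjusted p = 0.945). No sodium-coupled carrier of the Slc38 family was called at 30 μg/kg among 8 tested, against 6.16% of all genes. Slc38a1, a glutamine carrier, had 96.9, 111 and 111 CPM with vehicle and 68.0, 75.0 and 91.0 CPM at 30 μg/kg, below all vehicle-treated mice, and passed the adjusted p (0.0111) with -0.45 ± 0.11, short of the fold. For Slc38a2 and Slc38a10 the log2 fold changes were 0.07 ± 0.09 and 0.01 ± 0.07 (adjusted p = 0.679 and 0.964). The proton-coupled carrier Slc36a1 had -0.34 ± 0.30 and the glutamate and aspartate carrier Slc1a1 -0.47 ± 0.24 (adjusted p = 0.508 and 0.2).

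The remaining called members were of low level. Slc7a14, a lysosomal membrane protein related to the cationic amino acid carriers, had 3 to 7 counts with vehicle and 19 to 32 counts at 30 μg/kg, or 0.689, 0.316 and 0.393 CPM and 2.30, 1.59 and 2.50 CPM (2.16 ± 0.52, adjusted p = 0.0102). Slc6a17, a vesicular amino acid carrier of neurons, had 0.590, 0.105 and 0.0982 CPM with vehicle and 1.80, 1.00 and 2.50 CPM at 30 μg/kg (2.67 ± 0.70, adjusted p = 0.0163), with vehicle counts of 1, 1 and 6. The groups did not overlap for either gene. The call of Slc6a17 was lost without vehicle-treated mouse 3 or 4 (adjusted p = 0.0694 and 0.0791) or without mouse 67 (0.0653). Of 8 markers of enteric neurons and glia, 2 passed the filter, and 1 of these, Uchl1, was called higher (2.95% of all genes). The summed level of the 8 markers was 2.26 to 3.84 CPM with vehicle and 6.33, 2.68 and 11.6 CPM in mice 65, 66 and 67. S100b had no count with vehicle. Stroma markers were highest in mice 65 and 67 as well, the mice with the most Slc6a17 and Slc7a14. With the stroma score as covariate, log2 fold changes were 1.56 (adjusted p = 0.139) for Slc6a17 and 1.61 (adjusted p = 0.0746) for Slc7a14. In bulk tissue, more cells of a type and more RNA per cell cannot be told apart.

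Slc7a4, an orphan relative of the cationic amino acid carriers, had 14.2, 16.2 and 17.0 CPM with vehicle and 21.5, 23.2 and 26.9 CPM at 30 μg/kg (0.59 ± 0.15, adjusted p = 0.0152), and was not called without vehicle-treated mouse 2 (adjusted p = 0.0724) or mouse 67 (0.0694). Slc7a15 had 6.10, 2.32 and 1.96 CPM with vehicle and 1.15, 0.92 and 1.12 CPM at 30 μg/kg (-1.69 ± 0.48, adjusted p = 0.0249). Mouse 2 held the highest value of Slc7a15, and without it the log2 fold change was -0.99 (adjusted p = 0.239). The call was also lost without mouse 66 (0.0825) or mouse 67 (0.0669). A lower level of Slc7a15 was not limited to the top dose. Against vehicle it stood at -1.63, -1.58, -1.09 and -1.60 on the log2 scale for 0.01, 0.03, 0.1 and 0.3 μg/kg. For 1, 3 and 10 μg/kg it stood at -1.44, -1.50 and -1.14, and it was called at none of these doses. Slc7a10, a serine and glycine exchanger known from fat cells and brain, had 41 counts in mouse 67 (3.53 CPM) and 2 and 7 counts in the other 30 μg/kg mice, and was not called (adjusted p = 0.0831). Mouse 67 also had the highest adipocyte markers (150 CPM summed over 5 genes, against 6.69 to 24.7 CPM with vehicle). The pattern was not particular to the top dose. At 0.01 μg/kg Slc7a10 had 1.47, 0.697 and 1.99 CPM in mice 9, 11 and 14, with adipocyte markers at 105, 47.6 and 55.6 CPM. Its log2 fold change was 3.64 there and 3.65 at 30 μg/kg.

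The comparison of 30 with 3 μg/kg lay within the second index set and between groups with like clock scores (1.97 and 1.88 on average). In this comparison 2 members were called, against 0.461% of all genes. Slc6a14 had 568, 523 and 780 CPM in mice 49, 51 and 52 at 3 μg/kg against 286 to 440 CPM at 30 μg/kg, a log2 fold change of -0.82 ± 0.15 (adjusted p = 0.00661, edgeR). Slc16a6 had 12.2, 9.35 and 8.92 CPM at 3 μg/kg against 11.6, 22.2 and 19.9 CPM at 30 μg/kg, where mouse 65 lay within the 3 μg/kg range (0.81 ± 0.18, adjusted p = 0.0281). Both calls depended on single mice, with 3 of the 6 mice needed for Slc6a14 and 4 for Slc16a6. Without mouse 66, Slc6a14 was at -0.78 (adjusted p = 0.0524) and Slc16a6 at 0.63 (0.147), without mouse 67 at -0.69 (0.061) and 0.73 (0.133), and without mouse 52 at -0.63 (0.0644) and 0.73 (0.142). Without mouse 51, Slc16a6 was at 0.76 (0.142).

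Slc6a19 had 5.70, 4.72 and 6.20 CPM at 3 μg/kg, below all mice at 30 μg/kg, with a log2 fold change of 1.79 ± 0.43 that missed the threshold (adjusted p = 0.0584). It was called with DESeq2, with no filter on low counts and with a score of position from Hox genes as covariate. Slc5a8 had 271, 292 and 291 CPM at 3 μg/kg (-0.63 ± 0.22, adjusted p = 0.247, edgeR), and was called with the Hox score as covariate. Slc3a1 had 80.7, 72.5 and 118 CPM (0.52 ± 0.23, adjusted p = 0.409), and Slc16a5 differed by -0.04 ± 0.14 (adjusted p = 0.943). Of the partner genes, Slc6a20a was called in this comparison (1.38 ± 0.28, adjusted p = 0.0168). No peptidase of the 15 was called here, against 0.461% of all genes.

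When the 6 mice at 10 and 30 μg/kg were set against the 5 second-set mice at 1 and 3 μg/kg by an exact two-sided permutation test of mean log2(CPM + 0.1), Slc6a19 was 1.44 higher (p = 0.0173), Slc7a14 1.14 higher (p = 0.00649) and Slc6a17 1.44 higher (p = 0.0108). Slc6a14 differed by -0.61 (exact p = 0.0216), Slc5a8 by -0.44 (0.115) and Slc16a5 by 0.02 (0.827). Members called at 30 μg/kg against vehicle but with a p above 0.05 here included Slc1a4 (0.37 higher, exact p = 0.0758), Slc16a6 (0.41 higher, 0.121), Slc3a1 (0.28 higher, 0.212) and Slc43a2 (0.16 higher, 0.405). Of the 59 tested members, 9 had an exact p under 0.05, against 11.2% of all genes tested, among them Slc6a12 (1.29 higher, 0.0130), Slc43a3 (0.99 higher, 0.0260) and Slc3a2 (0.20 higher, 0.0260), which were not called at 30 μg/kg. These p-values are not adjusted for the number of members compared in this way, and the smallest that 462 arrangements can give is 0.00216.

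A trend over all doses was tested as a slope over dose rank, from 0 for vehicle to 8 for 30 μg/kg. It passed an adjusted p under 0.05 for 18 members, against 23.4% of all genes tested, with 14 rising (11.8% of all genes) and 4 falling (11.6%). The lowest adjusted p was that of Slc16a5, which rose by 0.12 ± 0.01 on the log2 scale per dose step (adjusted p = 1.18e-06). Slc6a19 rose by 0.30 ± 0.05 per step (5.05e-05) and Slc3a1 by 0.15 ± 0.02 (6.15e-05). The 4 falling members were Slc38a1 (-0.06 ± 0.01, adjusted p = 0.000972), Slc5a8 (-0.09 ± 0.02, 0.00316), Slc6a14 (-0.08 ± 0.02, 0.00558) and Slc16a3 (-0.08 ± 0.03, 0.0445). The betaine and GABA carrier Slc6a12 (0.26 ± 0.06, adjusted p = 0.00173) and the peptide carrier Slc15a1 (0.18 ± 0.05, 0.00811) rose without being called at any single dose. The call of Slc16a3 was lost when any of 15 mice was left out, those of Slc16a6 and Slc1a4 with any of 2 mice each, and those of Slc6a6 and Slc7a7 with 1 mouse each. With a term for the index set no member passed, and 0.0667% of all genes did. With the stroma score 13 members passed (18.9% of all genes), without Slc1a4, Slc6a4, Slc6a17, Slc7a7, Slc7a14 and Slc16a3 and with Slc16a12 added.

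Members also differed between mice of the same dose, along an axis read from the Hox genes, which mark position along the gut. The score was the first principal component of 25 Hox genes, which held 69.5% of their variance, and is higher where Hoxd13, a gene of the distal colon, is higher. The Hox score ranged from -1.61 to 1.77, in units of its SD, and within vehicle from -0.51 to 1.24. In a fit with dose group as a factor, 18 members passed an adjusted p under 0.05, against 10.3% of all genes tested, with 9 higher (5.29% of all genes) and 9 lower (4.99%) in mice with a more distal score.

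Among the members that passed, the peptide carrier Slc15a1 had the largest coefficient, 0.68 ± 0.07 on the log2 scale per SD of the score (adjusted p = 3.81e-07). It ranged from 19.4 CPM in mouse 25 at 0.1 μg/kg (Hox score -1.56) to 291 CPM in mouse 57 at 10 μg/kg (1.63). Within vehicle it had 129, 83.4 and 47.6 CPM in mice 2, 3 and 4, in the order of their Hox scores (1.24, -0.04 and -0.51). At 30 μg/kg Slc15a1 had 177 and 199 CPM in mice 65 and 66, above the vehicle range, and 125 CPM in mouse 67, within it, and the log2 fold change of 0.94 ± 0.53 did not pass the test (adjusted p = 0.263). With the Hox score as a covariate it was 1.01 and was called (adjusted p = 0.00651), as were Slc6a4, Slc6a12 and Slc7a10.

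Of the members higher distally that passed, the serotonin carrier Slc6a4 followed with 0.52 ± 0.05 (adjusted p = 3.07e-07). Next came Slc16a12 with 0.48 ± 0.11 (0.00674, lost without 1 of the mice), Slc36a1 with 0.38 ± 0.03 (2.57e-08) and Slc6a8 with 0.32 ± 0.04 (2.59e-06). Slc36a1 ranged from 53.3 CPM in mouse 58 (Hox score -1.11) to 158 CPM in mouse 41 (0.98). Of the 4 members that carry short monocarboxylates, 3 were higher distally (5.29% of all genes). These were Slc5a8 by 0.24 ± 0.04 (adjusted p = 5.88e-05), Slc16a3 by 0.26 ± 0.06 (0.00981) and Slc16a1 by 0.15 ± 0.04 (0.00541). The other, Slc16a7, was at -0.15 ± 0.07 (0.225). Slc1a1 was higher distally by 0.28 ± 0.03 (adjusted p = 1.62e-06).

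Among the lowest coefficients that passed were those of the cystine light chain Slc7a9 (-0.28 ± 0.09, adjusted p = 0.032) and the carnitine carrier Slc16a9 (-0.22 ± 0.06, 0.0268). Others were those of the lysosomal arginine sensor Slc38a9 (-0.20 ± 0.04, 0.00249) and Slc36a4 (-0.18 ± 0.04, 0.00169). Slc7a9 ranged from 3.74 CPM in vehicle-treated mouse 2 (Hox score 1.24) to 12.8 CPM in mouse 11 (-1.61), and its coefficient and that of Slc16a9 were each lost when any of 7 of the 27 mice was left out. In the 16 mice of the first index set alone, the same 18 members passed, against 6.62% of all genes tested there, and the coefficient of Slc15a1 was 0.66 and that of Slc7a9 -0.42. From vehicle to 3 μg/kg alone, 14 of the 18 passed (7.88% of all genes), without Slc16a3, Slc16a9, Slc1a4 and Slc7a4. Of 7 enteroendocrine markers, 5 were lower (4.99% of all genes) and 1, Pyy, higher distally (5.29%). The mean Hox score was 0.23 with vehicle and 0.32 at 30 μg/kg, and with it as covariate all 13 members called at 30 μg/kg were still called.

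**Figure D4:**
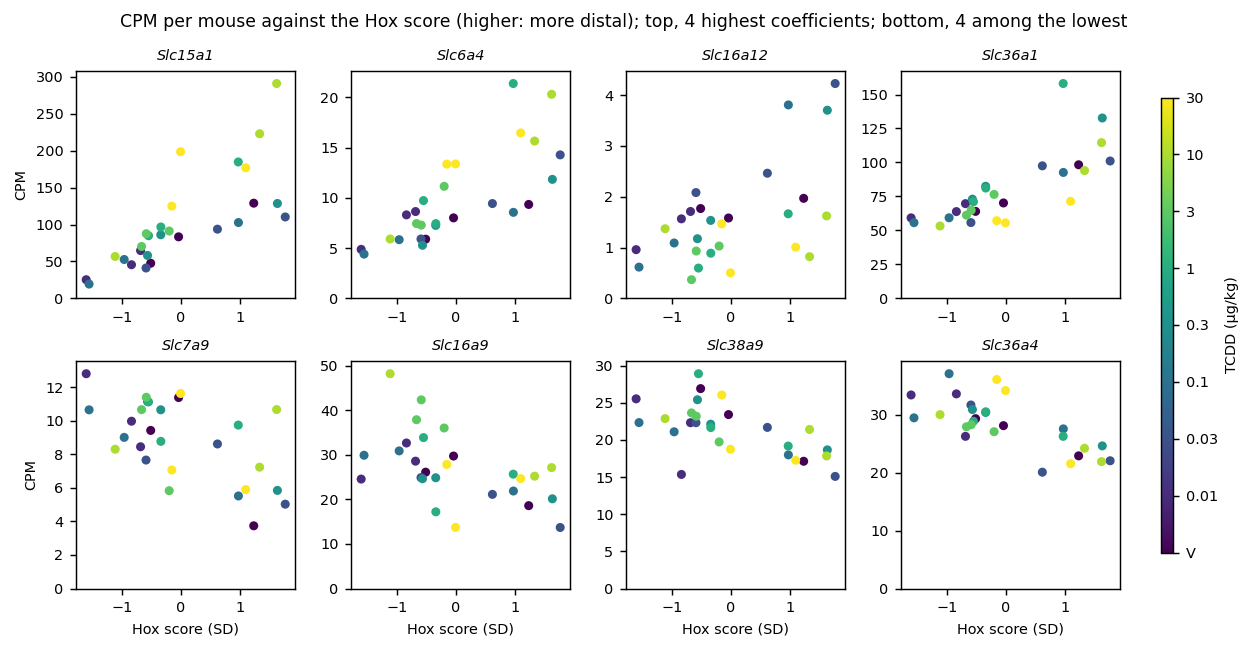
CPM per mouse against the Hox score in units of its SD (higher means more distal), coloured by TCDD dose. Among members past the threshold, the top row holds those with the 4 highest coefficients and the bottom row 4 among the lowest. Slc15a1 runs from 19.4 to 291 CPM from low to high scores and Slc7a9 the other way, from 12.8 to 3.74 CPM.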

How the data were processed

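Counts of 27 mice were analysed. The deposited values are raw counts of reads, as whole numbers for each gene in each mouse, without normalization by the authors. Per the labels, reads were checked with FastQC 0.11.3, trimmed with Trimmomatic 0.33, aligned to GRCm38 with TopHat2 2.1.0 and counted with HTSeq 0.6.1. The annotation release and the use of strand are not given in the sources used here. Reads with more than 1 alignment (30.7 to 37.1% of each table) and without a feature (29.1 to 33.3%) were left out, which lowers the counts of close paralogs. Reads set aside as ambiguous made up 0.392 to 0.607%.

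Genes were filtered with filterByExpr (minimum count 10, 16496 kept), scaled by TMM and fitted over all 9 groups with edgeR 4.0.16 (R 4.3.3, glmQLFit and glmQLFTest). P-values were adjusted by Benjamini-Hochberg over all genes tested, and each SE is the log2 fold change over the root of F. The index set was read from the barcode named with each deposited table, and scores are means of log2 CPM (clock, stroma) or a first principal component (Hox). The script was checked on simulated counts. Alternatives were RLE factors, no filter, DESeq2 1.42.0, limma 3.58.1 voom, 2 groups alone, each mouse left out, and terms for index set, Hox, clock and (added after the data were seen) stroma scores. Gene positions and exon lengths are from GENCODE M21 on GRCm38, and promoters from RefSeq on GRCm38.p6.

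Named members were those called at any dose or at 30 against 3 μg/kg, the 12 with the highest level per kilobase, the 5 highest and 5 lowest Hox coefficients among those past the threshold, and 22 carriers chosen by function. Slc1a3, Slc6a12, Slc7a6, Slc7a10, Slc15a2, Slc16a7, Slc36a2, Slc38a3 and Slc43a3 fall outside this rule and were chosen after their values were seen. 1 member and 1 gene of the lists are not reported here by name or value. The members, lists and tests were chosen with earlier results of these data known.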

Additional observations from a re-analysis of the deposited data

How the results depend on the processing

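At 30 μg/kg the 13 called members were all still called with RLE factors, DESeq2, limma voom, no filter and the Hox score. The count rose to 14 with no filter (3.82% of all genes), with Slc7a10 gained. It rose to 17 with the Hox score (7.71%), with Slc15a1, Slc6a4, Slc6a12 and Slc7a10 gained. With only the 2 groups compared the count was 13 (4.43% of all genes), with Slc16a3 and Slc7a15 lost and Slc43a3 and Slc6a4 gained. The count fell to 5 with a term for the index set (4.43% of all genes), to 1 (Slc6a14) with the clock score (2.56%) and to 7 with the stroma score (3.45%), and ran from 8 (without mouse 67) to 16 without 1 mouse. At 1 μg/kg the count of 1 became 0 with only the 2 groups, the index set term or the clock score, and 0 to 1 without 1 mouse. At 3 μg/kg the index set term or the clock score gave 0. At 10 μg/kg the count of 2 became 1 with limma voom (1.47% of all genes), 0 with the index set term (0.352%) or the clock score (0.139%), 4 with the Hox score (2.67%), 3 with no filter (1.18%), DESeq2 (2.23%) or the stroma score (1.41%), and 1 to 2 without 1 mouse. Slc3a1 was gained in each of the settings that gave 3 or 4, and took the place of Slc6a19 with only the 2 groups (1.81%). Slc5a8 was gained with the Hox score as well. For 30 against 3 μg/kg no filter gave 4, DESeq2 4, limma voom 1, only the 2 groups 0 and the Hox score 4 (0.485%, 0.915%, 0.412%, 0.212% and 0.934% of all genes), with 0 to 5 without 1 mouse. The slope count of 18 became 0 with the index set term, 13 with the stroma score, 17 with no filter (Slc16a3 lost), 19 with limma voom, 20 with RLE factors and 21 with the Hox score (0.0667%, 18.9%, 11.4%, 23.4%, 23.5% and 26.4% of all genes). The index set and clock terms overlap with dose, and the cause of each loss was not tested. Log2 fold changes at 30 μg/kg changed sign for some members, none of them called. These were Slc6a8 (-0.119 to 0.357 without 1 mouse), Slc38a2 (-0.010 with the index set term, -0.002 to 0.109 without 1 mouse), Slc38a10 (-0.022 with the stroma score, -0.039 to 0.039 without 1 mouse), Slc7a8 (-0.470 to 0.049 without 1 mouse) and Slc7a9 (-0.031 with the index set term, -0.342 to 0.313 without 1 mouse). Slc36a1 went from -0.34 to 0.718 with the index set term, which rests here on mouse 41, the mouse with the highest Slc36a1 (158 CPM). No paired analysis was possible because every mouse carries a number of its own that occurs in no other group. Low counts limit Slc6a17, Slc7a14 and Slc7a10 with vehicle.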

Other observations

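Slc15a2, a high-affinity peptide carrier, varied widely between mice, with 0.916 CPM in mouse 20 at 0.03 μg/kg and 35.6 CPM in vehicle-treated mouse 3 (coefficient of variation 73.3% over 27 mice). Neither dose nor the Hox score passed the test for it (slope -0.008 ± 0.08, adjusted p = 0.952; Hox coefficient -0.01 ± 0.32, adjusted p = 0.989, edgeR). The glutamate carrier Slc1a3, known from glia and other cells outside the epithelium, had 10.8 CPM in mouse 67 and 1.55 to 4.60 CPM in the other 26 mice, and mouse 67 also had the highest stroma, adipocyte and neuron and glia markers. Slc38a3 had 2.00 CPM in vehicle-treated mouse 3 and 2.38 CPM in mouse 44 at 1 μg/kg, against at most 1.00 CPM elsewhere.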
